A study of Mus musculus with 6 samples.

Results

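The Ugt1a cluster of the mouse lies on chromosome 1 and has 9 annotated protein-coding members that share their 3′ exons. Chromatin accessibility at its alternative first exons was read from the peak call of an ATAC-seq study of kidney. The members were taken by name (Ugt1a10, Ugt1a9, Ugt1a8, Ugt1a7c, Ugt1a6b, Ugt1a6a, Ugt1a5, Ugt1a2 and Ugt1a1, in order along the plus strand). All accessible intervals and summits between 3 kb upstream of the first annotated start and the common 3′ end (chr1:87980110-88147724, GRCm39) were collected by position, which gave 35 of 279569 intervals and 109 of 749750 summits. An interval is a stretch that the peak caller found enriched for transposase insertions, and a summit is a local maximum inside it.

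The cluster was chosen on a measured value, the width of a 48.8 kb interval that overlaps it, and that width is therefore given below as a description. The interval did not span the cluster. It covered 0 of the 9 first exon starts, and 3393 of its 48818 bp (6.95%) lay inside the region. This part holds the last of the shared 3′ exons and some of the intron before it.

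The libraries described here came from kidney cortex nuclei of 3 WT mice, which are Acly fl/fl littermates without Cre, and of 3 Acly cKO mice, which carry Acly fl/fl and Ksp-Cre (Cdh16-Cre). Both groups thus share the floxed allele of Acly, the ATP-citrate lyase gene, and all 6 libraries carry the treatment label Control. Ksp-Cre recombines in the proximal tubule, the distal tubule and the collecting duct, so Acly stays intact in the other cells of the cortex. By their labels the WT libraries were made in batches 1 and 2, whereas batches 4 and 5 hold only Acly cKO libraries, which leaves genotype and batch impossible to tell apart. A single pooled call was analysed, which may also hold WT libraries that the study reused, so none of the values below can be split by genotype and none has a replicate error.

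UGT1A enzymes sit in the endoplasmic reticulum and transfer glucuronic acid from UDP-glucuronic acid to bilirubin, hormones, drugs and phenols, which makes them soluble enough to be excreted. Each transcript joins one of the alternative first exons, which encodes the substrate-binding part of the enzyme and has its own promoter, to the same downstream exons, which encode the part that binds the sugar donor. The family is best known from liver and gut, and the kidney is another site of glucuronidation.

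Exons 2 to 5 (chr1:88142766-88142897, 88143517-88143604, 88143860-88144079 and 88145849-88147724) were annotated with the same start in all 9 members. A read from these exons cannot be given to a single member, whereas accessibility at most first exon starts can be set beside 1 member. The exception is the canonical Ugt1a6b start, since a Ugt1a7c transcript is annotated to start at 88030974, inside the same exon.

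The promoter sequences of the 3 members with the strongest summit at their start and of the 2 members with none are shown first, because these 5 carry the contrast within the cluster. They are RefSeq promoters of 300 bases, 250 before and 50 after the RefSeq start, found here by exact match on the plus strand of GRCm39. RefSeq held a promoter for 8 of the 9 members (not for Ugt1a6b). Capitals mark a match to GTTAAT on either strand, the recognition sequence of one subunit of the HNF1 factors of kidney and liver epithelium, or to its palindrome GTTAATNATTAAC with up to 2 mismatches.
Ugt1a1 (chr1:88139431-88139730): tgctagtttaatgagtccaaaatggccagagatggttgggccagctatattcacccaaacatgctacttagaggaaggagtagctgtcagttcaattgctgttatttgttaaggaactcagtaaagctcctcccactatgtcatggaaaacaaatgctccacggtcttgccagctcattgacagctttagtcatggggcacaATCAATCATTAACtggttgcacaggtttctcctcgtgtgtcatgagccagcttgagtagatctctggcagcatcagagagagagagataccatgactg
Ugt1a2 (chr1:88128083-88128382): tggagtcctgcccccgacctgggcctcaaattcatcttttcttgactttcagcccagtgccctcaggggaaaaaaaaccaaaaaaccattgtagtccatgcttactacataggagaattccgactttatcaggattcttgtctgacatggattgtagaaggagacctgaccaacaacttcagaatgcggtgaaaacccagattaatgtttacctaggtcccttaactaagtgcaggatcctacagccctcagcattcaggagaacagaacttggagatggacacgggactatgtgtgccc
Ugt1a7c (chr1:88022473-88022772): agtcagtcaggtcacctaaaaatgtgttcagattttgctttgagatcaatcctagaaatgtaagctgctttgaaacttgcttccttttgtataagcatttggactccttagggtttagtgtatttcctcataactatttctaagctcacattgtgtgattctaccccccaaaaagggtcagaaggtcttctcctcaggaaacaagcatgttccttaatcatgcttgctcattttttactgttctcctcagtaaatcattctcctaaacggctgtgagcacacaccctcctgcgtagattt
Ugt1a8 (chr1:88015300-88015599): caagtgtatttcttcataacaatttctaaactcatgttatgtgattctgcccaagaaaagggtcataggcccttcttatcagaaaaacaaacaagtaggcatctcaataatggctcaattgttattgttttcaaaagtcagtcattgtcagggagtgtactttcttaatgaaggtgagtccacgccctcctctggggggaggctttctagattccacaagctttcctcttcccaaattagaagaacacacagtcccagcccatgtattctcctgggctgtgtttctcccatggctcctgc
Ugt1a5 (chr1:88093484-88093783): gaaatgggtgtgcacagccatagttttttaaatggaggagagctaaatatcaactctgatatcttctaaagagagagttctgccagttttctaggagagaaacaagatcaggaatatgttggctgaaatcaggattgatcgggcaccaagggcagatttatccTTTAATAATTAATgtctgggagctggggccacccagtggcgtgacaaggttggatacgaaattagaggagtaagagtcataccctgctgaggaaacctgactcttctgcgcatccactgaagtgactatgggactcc

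The single-base summit of Ugt1a1 lay at base 213 of its sequence, inside the capitals. Those of Ugt1a7c and Ugt1a2 lay at bases 274 and 259, past the RefSeq start, and no capitals appear in either sequence. Ugt1a5 held a palindrome with 2 mismatches and no summit. A match is a description of letters, and binding was not measured.

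Summits stood within 1 kb of the start of 7 of the 9 members, and 3 of the 9 reached 10-fold. Over all 21757 protein-coding starts the shares were 75.4% and 57.2%, and 6 of the 9 members against 64.3% of all starts had a summit of at least 5-fold. The value used is the fold enrichment at the summit, the caller's ratio of the pileup (the number of extended reads over the summit) plus 1 to a constant genome-wide background of 14.3 plus 1. Intervals in brackets are exact Poisson 95% intervals of the pileup and cover counting error only.

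Ugt1a1, the bilirubin-conjugating member and the last first exon before the shared exons, had the strongest start of the cluster, at 17.3-fold (15.3 to 19.6, pileup 264), 36 bp upstream of its start. Its other summits within 1 kb stood at 5.43-fold 378 bp upstream, and at 7.33-fold and 5.63-fold 563 and 932 bp downstream. All 4 of its summits within 1 kb thus exceeded 5-fold, which held for no other member with more than 1 summit.

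Ugt1a2, whose first exon was closest in sequence to that of Ugt1a5, reached 16.9-fold (14.9 to 19.1, pileup 257) 18 bp past its start. Its remaining 3 summits within 1 kb were between 2.10-fold and 2.42-fold. Ugt1a7c, a member of the group that conjugates phenols and other xenobiotics, reached 16.2-fold (14.3 to 18.4, pileup 247) 20 bp past its start. Further summits of 8.25-fold and 11.9-fold stood 385 and 628 bp upstream of the Ugt1a7c start, and one of 2.49-fold 905 bp downstream.

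These 3 starts could not be ranked among themselves. The ratio of Ugt1a1 to Ugt1a2 was 1.03 (0.862 to 1.22) and that of Ugt1a1 to Ugt1a7c 1.07 (0.895 to 1.28), with exact conditional intervals for counting error. The next member from canonical starts was Ugt1a10, with a ratio of Ugt1a7c to Ugt1a10 of 1.92 (1.55 to 2.41). From any annotated start it was Ugt1a6a, at 9.56-fold.

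Ugt1a10, the first exon at the far 5′ end of the cluster, had 1 summit, of 8.45-fold (7.06 to 10.0, pileup 128), 203 bp past its start and inside the exon. Ugt1a9, its neighbour and a phenol-conjugating member, reached 3.86-fold (2.95 to 4.97, pileup 58) 248 bp past its start, with further summits of 3.01-fold at 16 bp and 2.23-fold at 486 bp upstream. The value of Ugt1a10 was 2.19 times that of Ugt1a9 (1.61 to 3.06).

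The first exons of these neighbours were 90.7% identical over 924 aligned bases, and their RefSeq promoters 81.7% identical over 278 bases, so they are shown side by side over their last 175 bases. Both held the HNF1 palindrome with 1 mismatch, in capitals, and Ugt1a10 held a separate GTTAAT before it.
Ugt1a10 (chr1:87983008-87983182): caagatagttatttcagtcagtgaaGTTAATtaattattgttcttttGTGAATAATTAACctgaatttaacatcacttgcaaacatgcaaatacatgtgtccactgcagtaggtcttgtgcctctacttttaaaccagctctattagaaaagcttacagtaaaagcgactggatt
Ugt1a9 (chr1:87998376-87998550): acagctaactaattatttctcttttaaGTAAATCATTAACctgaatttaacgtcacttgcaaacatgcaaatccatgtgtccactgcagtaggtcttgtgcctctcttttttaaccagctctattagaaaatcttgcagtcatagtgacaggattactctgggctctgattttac

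Ugt1a6a and Ugt1a6b encode phenol-conjugating enzymes and have the most similar first exons of the cluster, 96.6% identical over 932 bases. Ugt1a6a reached 6.02-fold (4.86 to 7.38, pileup 91) 38 bp upstream of the start of its canonical transcript. Its other 5 summits within 1 kb were between 1.77-fold and 2.49-fold. GENCODE also places Ugt1a6a transcripts with starts from 88062222 to 88062604, and the summit there was stronger, at 9.56-fold (8.08 to 11.2, pileup 145), 43 bp upstream of the start at 88062449. The RefSeq start of Ugt1a6a lies among these upstream starts, 3569 bp before the canonical one.

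The canonical start of Ugt1a6b belongs to a noncoding exon (chr1:88030952-88031100), and its strongest summit within 1 kb stood 641 bp downstream, at 5.24-fold (4.16 to 6.51, pileup 79). The start of its coding first exon, 88034584, had a summit of 7.07-fold (5.81 to 8.53, pileup 107) 973 bp upstream and one of 2.03-fold 22 bp upstream. The canonical starts of the pair are thus not equivalent positions. The ratio of Ugt1a6a to Ugt1a6b was 1.15 (0.843 to 1.58) and that of Ugt1a6b to Ugt1a9 1.36 (0.958 to 1.95), so these neighbours in the order did not differ beyond counting error, while Ugt1a10 was 1.40 times Ugt1a6a (1.07 to 1.86). That order holds at the canonical start only, since the upstream Ugt1a6a starts had 9.56-fold against 8.45-fold for Ugt1a10, with overlapping intervals.

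Ugt1a8, of the phenol group, and Ugt1a5, related to Ugt1a2, had no summit within 1 kb. The nearest summit to the Ugt1a8 start lay 4737 bp downstream (4.58-fold), closer to the first exon of Ugt1a7c, and the nearest to the Ugt1a5 start 13878 bp downstream (4.65-fold). The first exon of Ugt1a8 was 83.4% identical to that of Ugt1a7c over 897 bases, and that of Ugt1a5 82.2% identical to that of Ugt1a2 over 858 bases. In each of these pairs one start lacked a summit and the other exceeded 16-fold.

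**Figure D1:**
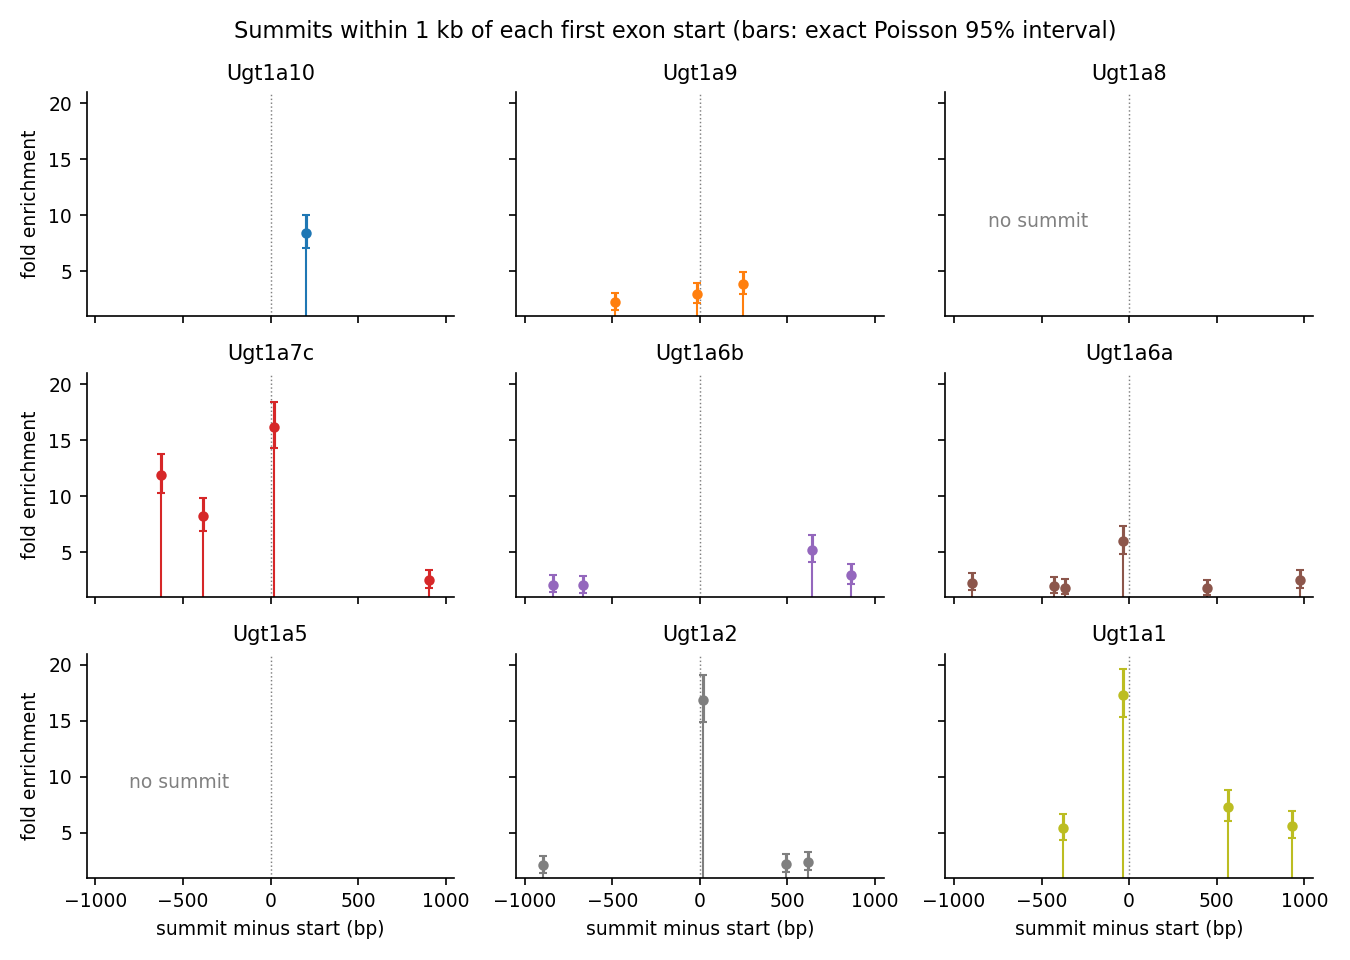
Summits within 1 kb of each canonical first exon start, in order along the cluster; the x axis is the distance of the summit from the start in bp, the y axis the fold enrichment, and the bars are exact Poisson 95% intervals for counting error. Ugt1a7c, Ugt1a2 and Ugt1a1 each have a summit above 16-fold close to the start, while Ugt1a8 and Ugt1a5 have none.

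Reads that did not map uniquely were removed by the authors, and the first exons resemble each other, so the share of 50-base words that occur once in the assembly was computed within 1 kb of each start. It was 99.4% for Ugt1a8 and 90.4% for Ugt1a5, the members without a summit. Ugt1a1 had 75.8%, Ugt1a7c 85.1% and Ugt1a2 96.2%. The lowest shares were at Ugt1a6b (68.0%) and Ugt1a6a (76.9%) besides Ugt1a1, and the part of repeated sequence in the members' values was not tested. The median over all protein-coding starts was 100%.

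The members' promoters were poor in CpG. Within 250 bases on either side of the GENCODE start the members held from 1 to 8 CpG, against a median of 24 over all protein-coding starts, and their GC content was between 41.8% and 52.0%, against a median of 57.2%. Starts with more than 8 CpG had a summit in 92.9% of cases, with a median of 31.9-fold. Among the 6214 starts with at most 8 CpG, 31.6% had a summit within 1 kb and 8.5% one of at least 10-fold, with a median of 4.45-fold for those with a summit. The members' 7 of 9 and 3 of 9 stood above these shares, and their median of 8.45-fold above that median, whereas 7 of 9 was close to the share of all starts. The limit of 8 CpG was set after the members' CpG numbers were seen, and no test was made.

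Against all genes the members stood near or below the middle of the range. Over all starts with a summit the median was 28.5-fold with quartiles of 10.6 and 46.7. Counting starts without a summit as lowest, Ugt1a1 stood at percentile 50.3, Ugt1a2 at 49.8, Ugt1a7c at 49.1, Ugt1a10 at 41.0 and Ugt1a9 at 33.1.

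Both strands of the 300-base promoters were searched for letters that known factors bind. GTTAAT stood in 4 of the 8 (Ugt1a10, Ugt1a9, Ugt1a6a and Ugt1a1), against 7.20% of 27025 RefSeq promoters. Within 250 bases on either side of the GENCODE start it stood in Ugt1a6b and not in Ugt1a6a, in 4 of 9 members against 9.69% of all. The RefSeq promoters had a median GC content of 52.7%, those of Ugt1a10 and Ugt1a9 32.7% and 34.3%, and the part of composition was not tested. The palindrome, which contains GTTAAT, had no exact match in the 8 and 2 among all promoters. With 2 mismatches allowed, a setting added later, it stood in Ugt1a10, Ugt1a9, Ugt1a5 and Ugt1a1, against 1.38% of all. Around the GENCODE starts it stood in 5 of 9 members, with Ugt1a6a in addition, against 1.67% of all. GCGTG, the core bound by the aryl hydrocarbon receptor, stood in Ugt1a8 and Ugt1a5 and in 32.5% of all promoters. Within 250 bases on either side of the GENCODE start it stood also in Ugt1a2 and Ugt1a1, and around 51% of all protein-coding starts. AGGTCA, a nuclear receptor recognition sequence, stood in the RefSeq promoters of Ugt1a9 and Ugt1a7c and in 16.0% of all RefSeq promoters. TATAAA, CAAAGTCCA (HNF4) and TGACNNNGC (the antioxidant response core) were in none of the 8, against 14.2%, 0.477% and 12.5% of all.

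Summits were unevenly spread along the cluster. From the region start to the Ugt1a7c start, 42.6 kb that hold 3 of the first exons, intervals covered 8.02% of the bases. Between the Ugt1a7c and Ugt1a1 starts they covered 22.9%, and from the Ugt1a1 start to the common end 97.6%. Over the whole 168 kb the share was 22.7%.

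The longest stretches without an interval were 29.1 kb around Ugt1a5 and 21.3 kb around Ugt1a8, where 79.0% and 97% of 50-base words were unique. Over the region 80.6% of words were unique, with 87.5% inside and 78.5% outside intervals. The next was 14.2 kb between Ugt1a10 and Ugt1a9, where 61.1% were unique. The part of repeated sequence in these gaps was not tested.

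Each summit was assigned to the nearest first exon. Ugt1a6a took 29 of the 109, Ugt1a1 24, Ugt1a2 22, Ugt1a6b 21, Ugt1a7c 8, Ugt1a9 3, Ugt1a10 1, Ugt1a5 1 and Ugt1a8 0. Per kb of territory Ugt1a1 led with 1.81, Ugt1a7c had 1.03, Ugt1a6b 0.987, Ugt1a2 0.958 and Ugt1a6a 0.913, and the other members had 0.185 or fewer. Of the 36 summits of at least 5-fold, 16 were nearest to Ugt1a1, 7 to Ugt1a6b, 5 to Ugt1a6a, 4 to Ugt1a2, 3 to Ugt1a7c and 1 to Ugt1a10. The nearest first exon is a matter of distance and does not say which promoter a site acts on.

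**Figure D2:**
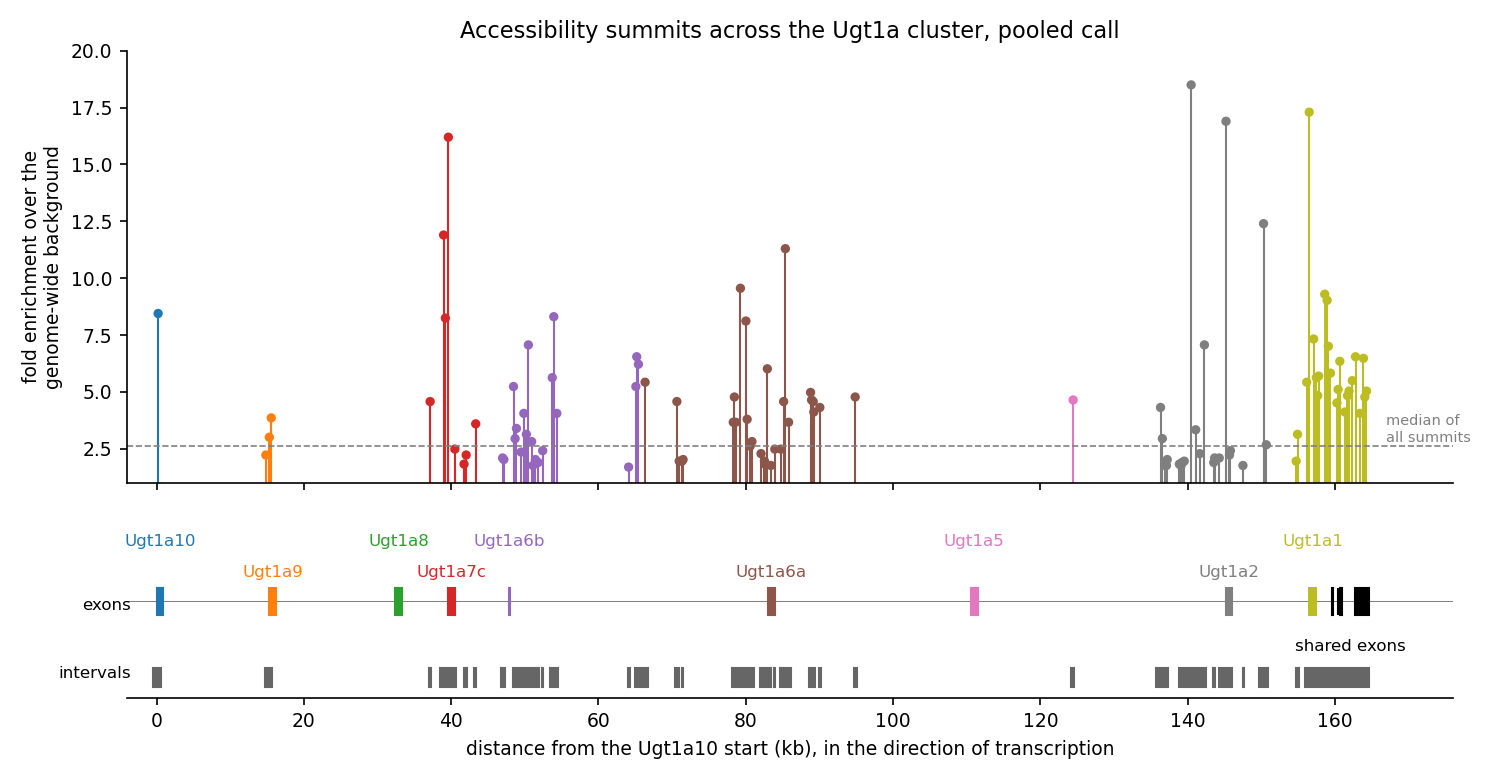
Fold enrichment of the 109 summits (y axis) by distance from the Ugt1a10 start in kb (x axis), coloured by the nearest first exon; the lower track draws the first exons, the shared exons in black and the intervals in grey. Summits are sparse around Ugt1a10, Ugt1a9, Ugt1a8 and Ugt1a5 and dense from the Ugt1a1 start to the shared exons, where intervals cover 97.6% of the bases.

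The median over the 109 summits was 4.06-fold, against 2.62-fold over all summits of the call, and 33.0% against 18.4% were of at least 5-fold. Summits within 1 kb of a member start made up 23.9% of the 109, in 10.7% of the region. Their median was 2.98-fold, with 11 of 26 at 5-fold or more and 4 at 10-fold or more. The other 83 summits had a median of 4.12-fold, with 25 at 5-fold or more and 3 at 10-fold or more. Of these, the 18 past the Ugt1a1 first exon had a median of 5.30-fold and the remaining 65 one of 3.40-fold.

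The strongest summit of the region was not at a start. It lay 4714 bp upstream of Ugt1a2, at 18.5-fold (16.4 to 20.8, pileup 282), inside an interval of 3707 bp with 8 summits. Its ratio to the Ugt1a1 start was 1.07 (0.90 to 1.27), so the 2 could not be ranked. The 201 bases centred on it are shown because no annotated member starts there, with the GTTAAT match in capitals. It also held AGGTCA and TGACNNNGC.
Site upstream of Ugt1a2 (chr1:88123509-88123709): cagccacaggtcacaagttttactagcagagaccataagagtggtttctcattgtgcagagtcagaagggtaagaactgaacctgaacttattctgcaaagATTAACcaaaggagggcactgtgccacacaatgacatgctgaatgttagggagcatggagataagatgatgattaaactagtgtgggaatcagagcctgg

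Of the next strongest sites over 1 kb from every member start, one of 12.4-fold (10.7 to 14.3) between Ugt1a2 and Ugt1a1 lay 61 bp into Dnajb3, a gene for a DnaJ family co-chaperone on the opposite strand. Another of 11.3-fold (9.65 to 13.1) stood 2408 bp past the Ugt1a6a start, and one more was the 9.56-fold summit of the upstream Ugt1a6a starts. The last, of 9.30-fold (7.84 to 11.0), stood 2069 bp past the Ugt1a1 start, in the intron between its first exon and exon 2.

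Accessibility continued from the Ugt1a1 start into the shared exons without a break of more than 195 bp. The interval over the Ugt1a1 start was 5109 bp wide and held 13 summits, and the 48.8 kb interval (chr1:88144332-88193149) began 195 bp after it. The 2 together reached over 54.1 kb. Past the end of the Ugt1a1 first exon, 7.13 kb held 19 summits and 97.3% of the bases lay in an interval. Of these summits 1 lay in exon 3 and 5 in exon 5.

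The 48.8 kb interval held 136 summits with a median of 6.65-fold and was at rank 3 by width among 103 intervals of at least 20 kb. Its highest summit, 34.1-fold, placed it at rank 84 of these 103, whose median highest summit was 46.6-fold. In the 3.39 kb inside the Ugt1a genes it held 9 summits with a median of 5.04-fold and a maximum of 6.55-fold. The next 6.98 kb, up to Mroh2a, held 21 summits with a median of 5.76-fold, and the 35.3 kb of Mroh2a, a gene for a HEAT-repeat protein, 98 summits. Its 3 strongest summits, of 34.1-fold, 30.5-fold and 30.4-fold, lay 42502, 40248 and 16189 bp past the common 3′ end of the Ugt1a genes. The interval extended 45425 bp past that end into Hjurp, which encodes the chaperone of the centromeric histone CENP-A.

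**Figure D3:**
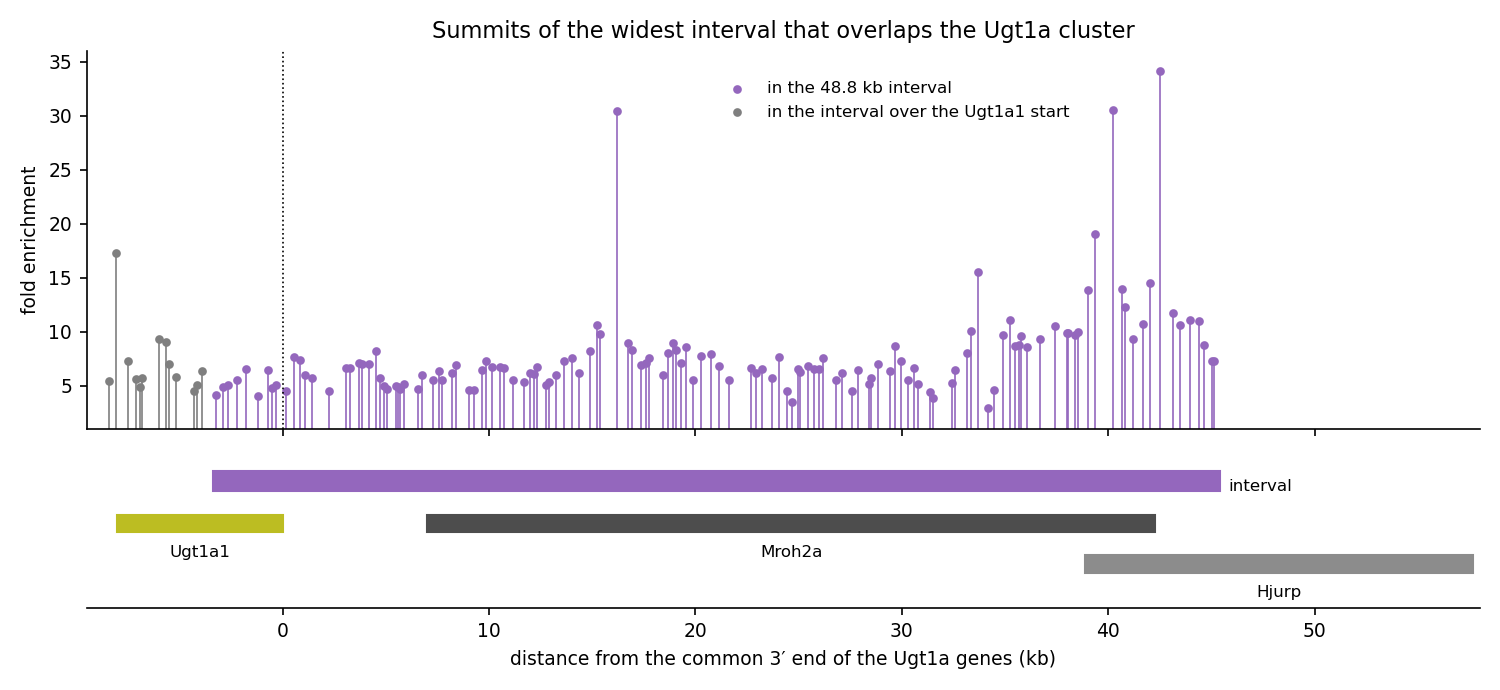
Summits from the Ugt1a1 start to the end of the 48.8 kb interval by distance from the common 3′ end in kb (x axis) and fold enrichment (y axis), with the interval and the genes drawn below. The 9 summits of this interval that lie inside the Ugt1a genes reach 6.55-fold at most, and the summits of 30-fold or more lie over Mroh2a and Hjurp.

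The Ugt1a starts were set beside other genes of the pathway. Among all protein-coding starts 75.4% had a summit within 1 kb and 57.2% one of at least 10-fold, with a median of 28.5-fold for those with a summit. Of 13 Ugt2, Ugt3 and Ugt8 enzymes, which are separate genes of the same superfamily, 8 had a summit within 1 kb and 4 reached 10-fold, with a median of 9.62-fold. Ugt8a, which makes galactolipids of myelin, had 22.1-fold and Ugt2b38 12.4-fold, while Ugt2b35 had 2.23-fold and Ugt2b5 4.26-fold. The median of the Ugt1a members with a summit was 8.45-fold.

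All 4 genes that supply UDP-glucuronic acid or cleave glucuronides had a summit of at least 10-fold, as had 57.2% of all protein-coding starts. Ugdh, the dehydrogenase that makes UDP-glucuronic acid, had 67.8-fold (63.7 to 72.0) and Ugp2, which makes UDP-glucose, 56.5-fold. Slc35d1, a carrier of the sugar donor into the endoplasmic reticulum, had 27.4-fold, and Gusb, the lysosomal enzyme that removes glucuronic acid, 23.8-fold.

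Of 11 factors known to act on Ugt1a genes, 11 had a summit and 10 reached 10-fold, with a median of 25.7-fold. The shares over all protein-coding starts were 75.4% and 57.2%, and the median of those with a summit was higher, at 28.5-fold. Nfe2l2, the regulator of the antioxidant response, had 78.6-fold (74.2 to 83.2) and Ahr, the aryl hydrocarbon receptor, 60.6-fold. Nr1i3, the receptor CAR, had 4.71-fold (3.70 to 5.93) and Nr1i2, the receptor PXR, 13.5-fold. Haem and bilirubin handling and conjugate export had a summit in 8 of 9, all of at least 10-fold, with a median of 41.9-fold. Blvrb, a biliverdin reductase, had 66.6-fold and Hmox1, which opens the haem ring, 58.5-fold. Abcc2, the exporter of conjugates in the apical membrane, had 10.1-fold, and Slco1b2, a liver uptake carrier, had none.

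The label kidney was set beside markers, and no test was made. All 10 kidney tubule genes had a summit at the start, with a median of 10.5-fold and 5 of the 10 at 10-fold or more. Among all protein-coding starts 75.4% had a summit and 57.2% one of at least 10-fold, with a median of 28.5-fold for those with a summit. The tubule genes ranged from 4.19-fold (Aqp2, the collecting duct water channel) to 162-fold (Cdh16, whose promoter also drives the Cre of the Acly cKO mice). Of the proximal tubule genes, Lrp2, the megalin gene, had 33.1-fold, Cubn, its partner in protein uptake, 15.1-fold, Slc34a1, a phosphate carrier, 9.56-fold and Slc5a2, a glucose carrier, 7.40-fold. The 2 podocyte genes had 3.14-fold and 4.52-fold, and the value of Aqp2 lay between these. Liver genes had at most 3.08-fold, with none at Cyp3a11, and 2 of 4 genes of other organs had a summit, of at most 3.40-fold. The libraries are bulk nuclei, so accessibility in few cells and weak accessibility in many cannot be told apart.

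**Figure D4:**
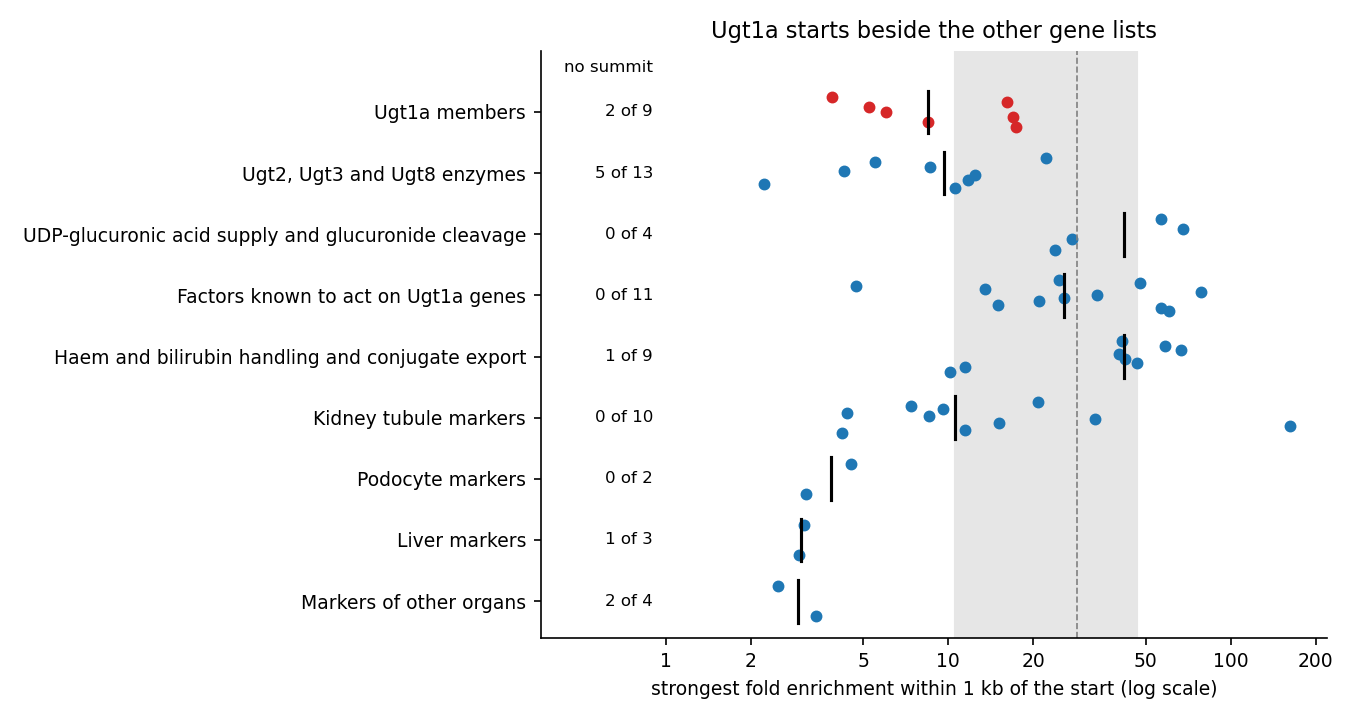
Strongest fold enrichment within 1 kb of the start (x axis, log scale) for each gene of each list, with Ugt1a in red; black bars are the medians of genes with a summit, the numbers at the left count genes without one, the grey band spans the quartiles over all starts with a summit (10.6 to 46.7) and the dashed line is their median. The Ugt1a members lie between 3.86-fold and 17.3-fold, within the range of the other Ugt enzymes and below the medians of the lists for sugar donor supply, factors and haem handling.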

How the data were processed

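ATAC-seq libraries of mouse kidney were grouped by genotype from their labels (3 WT, 3 Acly cKO). Per the labels and methods, the authors used fastp for trimming and Bowtie2 2.3.4.3 for alignment to mm39, removed duplicates and reads not mapped uniquely, called peaks with MACS3 3.0.0 at a q limit of 0.05 with summits, and removed blacklisted regions with bedtools 2.29.1. The deposited list is 1 call over pooled libraries. Which libraries were pooled is not given in the sources used here, and WT libraries that the study reused may be among them. Depth per library is not known from these values.

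The deposited list gives the fold enrichment, a linear ratio computed by the authors' caller, the −log10 p and −log10 q as the authors' caller wrote them, a score that the authors' caller derived from −log10 q, and the position of each summit. A second deposited list, with summits as called before filtering, repeats the −log10 q.

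Fold enrichments below 20-fold were whole multiples of a step of 0.06547 within 0.000886 steps (727147 summits), which gives the pileup as a whole number. A Poisson tail for that pileup and a background of 14.3 differed from the caller's −log10 p by a median of 7.69e-05%. Intervals are exact at a 95% level and cover counting error only.

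Starts are those of Ensembl canonical transcripts in GENCODE M39 (GRCm39), the build of the files. A window of 1 kb on either side was used for all 21757 protein-coding genes. Sequences were compared with BLAST+ 2.17.0, and promoters are from RefSeq (table built on GRCm38.p6, used for sequence only). Python 3.11.15 was used with pandas 2.3.3, numpy 2.4.6 and scipy 1.17.1. The search for words, the motif search and the assignment of summits were tested on simulated data. No test was made, since a single call has no contrast.

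The members, lists and alternatives were chosen with earlier results of these data known. Genes named are the 9 members, up to 4 examples of each list, genes annotated in the region, the nearest protein-coding neighbours and the 5 strongest summits over 1 kb from every member start. Hjurp was named in addition, after its values were seen, as the gene under the end of the 48.8 kb interval, as were Lrp2, Cubn, Slc34a1 and Slc5a2 among the markers.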

Additional observations from a re-analysis of the deposited data

How the results depend on the processing

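Of 122 values recomputed under an alternative, 105 stayed and 17 moved, but some of the 105 could not have moved. Fold enrichments had to stay within their interval for counting error, and most other values, percentages among them, within 1.5 times. An alternative that left a member without a summit gave it no fold enrichment and is not among these fold enrichments. A limit on q or on fold enrichment thus keeps the strongest summit or drops the member, and the unfiltered list repeats the −log10 q. The shares of unique words, 68.0% or more, could not grow by 1.5 times with longer words. The tally is therefore not a measure of robustness. The number of members with a summit was 7 of 9 in windows of 1 and 2 kb, at q under 0.01 and under 1e-05, from any annotated start and in the unfiltered list. It was 6 in windows of 500 and 250 bp, where Ugt1a6b dropped out, and 6 for summits of at least 5-fold, where Ugt1a9 did. The 3 members of at least 10-fold stayed 3 in windows of 250 bp to 2 kb and from any annotated start, a setting added after seeing the data. Ordering by −log10 q gave the same order of the 7, which was fixed in advance, since both values follow from the same pileup at a constant background. From any annotated start Ugt1a6a moved to 9.56-fold, above Ugt1a10, and Ugt1a6b to 7.07-fold.

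Joining summits of at least 5-fold that lie within 1 kb of each other gave 3231 bp, at Ugt1a1, as the widest run that touches the region, in place of the interval of 48818 bp. Past the region that interval kept runs of 11972 and 10201 bp. Coverage of the region was 21% with intervals at q under 1e-05, and 34 intervals had their highest summit inside it. Assigning summits to the next first exon downstream gave Ugt1a5 11 summits in place of 1, Ugt1a6b 5 in place of 21 and Ugt1a7c 5 in place of 8. In 500 bases around the GENCODE starts AGGTCA stood in 5 of 9 members, GCGTG in 4, and CAAAGTCCA and TGACNNNGC in 1 each. The shares over all protein-coding starts were 22.5%, 51%, 0.745% and 20%, in the same order.

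No paired analysis was possible because the only call pools the libraries, and no single library can be taken out of it. Sites below the caller's limit are not in the list, so a start without a summit is not shown to be closed.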

Other observations

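The region also holds 10 annotated unprocessed pseudogenes. Their best alignment to a first exon was from 72.3% to 82.9% identical and from 88 to 859 bases long. Of the 10, 5 had a summit within 1 kb of their start, from 3.60-fold to 4.78-fold, and none reached 5-fold. Of the 9 members 6 did, near the 64.3% of all protein-coding starts, and the share over other pseudogenes was not computed. Gm15374 and Gm15372 were the most similar to a first exon, with 82.9% and 82.5% identity to that of Ugt1a7c over 858 and 859 bases, and their strongest summits stood at 4.78-fold and 4.58-fold, 770 and 719 bp upstream. Gm15376 held 4 summits inside its annotated bases, Gm15372 held 1 and the other pseudogenes 0. The remaining summits within 1 kb lay outside them.

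The long noncoding RNA Gm20528 runs antisense over most of the cluster and starts in the last shared exon, where its strongest summit within 1 kb was 6.55-fold. Gm70333, a noncoding RNA on the plus strand that starts between Ugt1a9 and Ugt1a8, had no summit within 1 kb of its start. Usp40, the protein-coding neighbour upstream, had 18.9-fold at its start, and Mroh2a, the neighbour downstream, 6.35-fold.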
